A study of Mus musculus with 12 samples.

Results

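Tumours of irradiated mice were compared with tumours of untreated mice, with no compound given to either group. The members are the 6 libraries whose labels give radiation alone or no treatment, 3 of each, out of 12 libraries in the series. The tumours are of CT26, an undifferentiated cell line from a colon tumour of a BALB/c mouse, and are described in the labels as wild type. The other 6 libraries come from CT26 tumours of mice given a compound named complex 1, with radiation (the combination) or without; the title of the series describes it as a platinum complex activated by X-rays. The labels give no radiation dose, no time between irradiation and sampling and no statement of whether the sampled tumour lay inside or outside the irradiated field, although the title speaks of an abscopal effect, and they do not state whether replicates are different mice. The p-values below therefore measure the spread between samples of this series only, estimated from all 12 libraries and not from the 6 compared alone.

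Ionising radiation breaks DNA, and cells with functional p53 respond by switching on genes for growth arrest, cell death and repair. DNA or RNA that reaches the cytoplasm can be read by nucleic acid sensors that induce interferons, and interferons switch on antiviral genes through the transcription factors STAT2 and IRF9. A transplanted tumour also holds host macrophages, lymphocytes, vessels and fibroblasts, so that bulk RNA mixes tumour and host transcripts. In such bulk samples, a change in the number of cells of a type and a change in RNA per cell cannot be told apart.

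RNA levels are given as FPKM (fragments scaled to exon length and library size), in the order of replicates 1, 2 and 3. Changes are log2 fold changes of irradiated over control tumours with their SE, from edgeR's quasi-likelihood test, and adjusted p-values are Benjamini-Hochberg values over the 13668 genes tested. A gene is said to rise or fall where its adjusted p was under 0.05. Where another setting ended a call or moved a count by over 1.5 times, it is named beside the result, among them limma on log2(FPKM + 1) or log2(FPKM + 0.1), DESeq2, a robust edgeR fit, the 6 libraries fitted alone, scaling by library totals, no filter on low values, or libraries left out. Total counts were 18.3, 19.1 and 17.7 M in control and 17.9, 19.0 and 18.6 M in irradiated tumours. Replicates of a group correlated at 0.988 to 0.991 (Pearson, across genes). Mitochondrial genes held 2.14% to 3.13% of the counts. Control replicate 2 stood apart in sex-linked RNA: Xist was at 0.02 FPKM with 28 counts from Y-linked genes, while the other 5 libraries had at least 9.20 FPKM and 0 such counts. Radiation replicate 2 stood apart in lymphocyte and macrophage genes, as given with those genes below. Defining epithelial genes were nearly absent in both groups, since Epcam was at 0.02 to 0.18 FPKM, Krt8 at 0.11 to 0.67 FPKM and Cldn3 at 0 in all 6 libraries, and the epithelial keratin gene Krt18 was at 3.45 to 7.72 FPKM. 

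Irradiated tumours had higher RNA of p53 targets, interferon-induced genes, macrophage genes and cytotoxic effectors, and lower RNA of genes for cell division, amino acid supply and protein folding. Of the 13668 genes, 1010 rose (7.39%) and 800 fell (5.85%), and 3885 had an unadjusted p under 0.05 (28.4%). Scaling by library totals in place of TMM factors gave 1163 rises and 576 falls. The 6 libraries fitted alone gave 834 rises and 459 falls. Without both replicates 2, the libraries that stood apart, 584 rose and 393 fell. Leaving out 1 library gave 542 rises and 357 falls (control replicate 1), 573 and 434 (control replicate 2), 566 and 299 (radiation replicate 1) or 637 and 516 (radiation replicate 3). Most falls were small: 216 genes rose at least 2-fold (1.58%) and 22 fell at least 2-fold (0.161%), and the median change was 0.65 among genes that rose and -0.35 among genes that fell. Levels did not overlap between the groups for 2448 genes that were higher (17.9%) in irradiated tumours and for 1640 that were lower.

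Falls were more frequent among abundant transcripts, and rises were not. Tested genes were split into 5 groups of equal size by mean level. In the group with the lowest levels, 6.33% rose and 0.988% fell. In the middle group, 7.68% rose and 5.38% fell. In the group with the highest levels, from 20.0 FPKM up, 7.43% rose and 12.2% fell. The precision of the counts also rises with the level, and its part in the smaller share of falls among low genes was not tested.

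**Figure D1:**
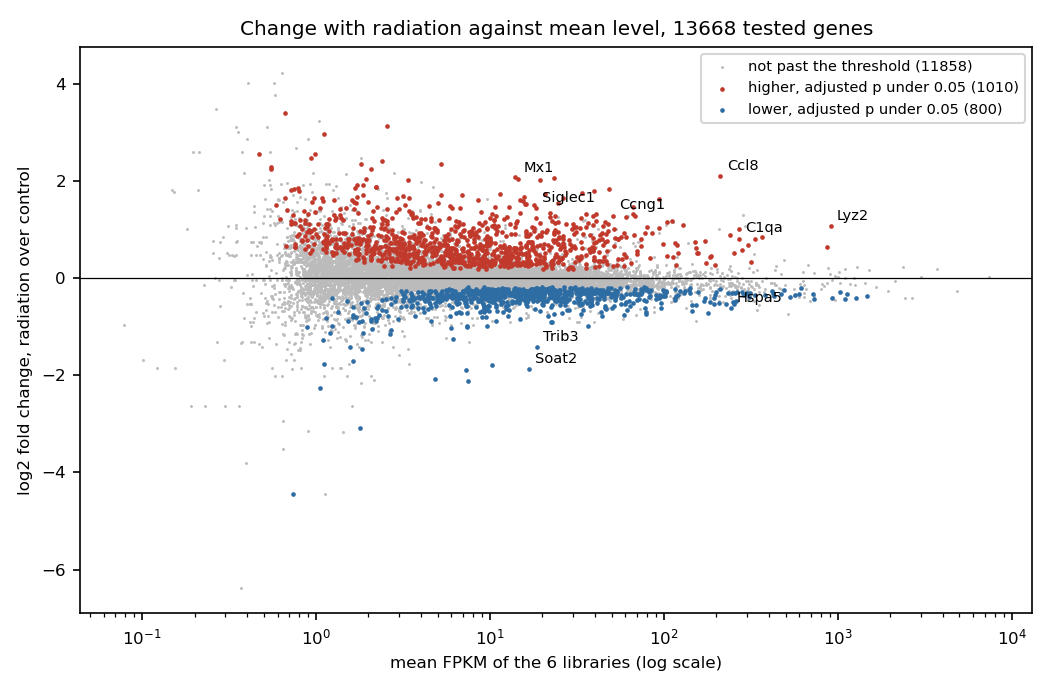
Log2 fold change of irradiated over control tumours (vertical axis) against the mean FPKM of the 6 libraries (horizontal axis, log scale) for each tested gene with a mean above 0. The 1010 genes that rose spread over all levels, and of the 800 that fell 27 lie in the group with the lowest levels (up to 2.05 FPKM) and 333 in that with the highest (from 20.0 FPKM).

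Trp53inp1 and Ccng1, both p53 targets, had the smallest p-values of the comparison. Trp53inp1, a p53-induced nuclear protein gene (ENSMUSG00000028211, chromosome 4, 11156431 to 11174379, mm39), was at 1.52, 1.71 and 1.69 FPKM in control and 4.84, 5.69 and 5.17 FPKM in irradiated tumours (log2 1.64 ± 0.10, adjusted p = 3.5e-06). Every irradiated library had more Trp53inp1 than every control library, and the radiation libraries differed little among themselves. Ccng1, which encodes cyclin G1, was at 27.4, 30.2 and 30 FPKM in control and 71.7, 78.9 and 67.9 FPKM in irradiated tumours (1.29 ± 0.08). Psrc1, a microtubule-associated protein gene, was at 10.8, 10.4 and 11.8 FPKM in control and 20.8, 21.6 and 21.7 FPKM in irradiated tumours (log2 0.93 ± 0.09, adjusted p = 8.7e-05). Mdm2, the ubiquitin ligase that limits p53, was at 30.5, 29.9 and 28.1 FPKM in control and 42.9, 42.4 and 40.95 FPKM in irradiated tumours (log2 0.48 ± 0.06, adjusted p = 0.001). For Ccng1, Psrc1 and Mdm2 the groups were far apart relative to the spread within them. Phlda3, an inhibitor of AKT, rose by 0.66 ± 0.09 and Zmat3, an RNA-binding protein gene, by 0.74 ± 0.10. Cdkn1a, which encodes the kinase inhibitor p21, was at 47.3, 40.2 and 31.2 FPKM in control and 56.3, 71.7 and 63.9 FPKM in irradiated tumours (log2 0.66 ± 0.13, adjusted p = 0.0066), with no overlap between the groups, and did not pass without both replicates 2 (adjusted p = 0.053).

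The 17 tested genes of p53 arrest and feedback had a median log2 change of 0.34 beside -0.006 over all tested genes. In this list 7 rose, beside 7.39% of all tested genes, and none fell. Without control replicate 3 it was 7 rises and 1 fall, and without the filter 8 and 1. The members that did not pass include the following. Btg2, an antiproliferative gene, was at 5.17, 4.1 and 2.74 FPKM in control and 4.66, 5.33 and 5.91 FPKM in irradiated tumours, and Sesn2, a stress-induced inhibitor of mTORC1 signalling, at 12.2, 9.8 and 9.08 FPKM in control and 12.6, 13.6 and 13.97 FPKM in irradiated tumours (log2 0.34 ± 0.11, adjusted p = 0.056). Ppm1d, the phosphatase that switches p53 signalling off, was at 6.9, 7.07 and 6.73 FPKM in control and 6.1, 6.92 and 6.07 FPKM in irradiated tumours. RNA of p53 itself (Trp53) was at 34.97, 32.3 and 38.2 FPKM in control and 33.01, 36.8 and 32.4 FPKM in irradiated tumours, with overlapping groups. Gdf15, a secreted p53 target, was too low to test in both groups, at 0.06 to 0.33 FPKM.

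Among the p53 targets of cell death, the genes that rose were the receptor genes Eda2r and Fas, the pore gene Bax and the nuclease gene Aen. The BH3-only genes Bbc3 and Pmaip1 did not pass the test. Eda2r, the receptor for ectodysplasin A2, was at 4.24, 3.45 and 4.01 FPKM in control and 7.23, 9.15 and 7.71 FPKM in irradiated tumours (log2 1.02 ± 0.11, adjusted p = 0.00042). Bax, which permeabilises mitochondria in apoptosis, was at 60.3, 54.5 and 57.6 FPKM in control and 76.3, 81.2 and 90.9 FPKM in irradiated tumours (log2 0.50 ± 0.09, adjusted p = 0.0041). Neither gene overlapped between the groups. Fas, the death receptor gene, was at 1.59, 1.78 and 2.05 FPKM in control and 3.73, 3.07 and 4.16 FPKM in irradiated tumours (log2 0.99 ± 0.25, adjusted p = 0.021). Aen, an apoptosis-enhancing nuclease gene, rose by 0.36 ± 0.09. The call for Fas ended without control replicates 1 or 2 or radiation replicates 1 or 3, or without both replicates 2 (adjusted p 0.06 to 0.079), and that for Aen without control replicates 2 or 3 or radiation replicates 1 or 2, or without both replicates 2 (adjusted p 0.05 to 0.11). Bbc3, which encodes PUMA, was at 10.9, 8.06 and 10.8 FPKM in control and 8.48, 9.37 and 9.68 FPKM in irradiated tumours, and Pmaip1, which encodes NOXA, at 0.5, 0.54 and 0.56 FPKM in control and 1.02, 0.91 and 0.65 FPKM in irradiated tumours (log2 0.66 ± 0.28, adjusted p = 0.14). Pmaip1 did not overlap between the groups, while Bbc3 did. In this list 4 of 13 tested genes rose, beside 7.39% of all tested genes, and none fell (median 0.27). The count was 2 without control replicate 2. Rises numbered 2 without both replicates 2 and 7 with library totals.

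Among p53 targets of repair and metabolism, the largest rises were in metabolic enzymes. Dcxr, a dicarbonyl and xylulose reductase gene, was at 2.43, 2.33 and 2.37 FPKM in control and 5.17, 5.53 and 6.33 FPKM in irradiated tumours (log2 1.23 ± 0.17, adjusted p = 0.0013). Dglucy, a D-glutamate cyclase gene, was at 3.7, 4.37 and 4.27 FPKM in control and 8.25, 9.56 and 8.45 FPKM in irradiated tumours (log2 1.06 ± 0.09, adjusted p = 4.2e-05), and Ephx1, the microsomal epoxide hydrolase gene, at 53.8, 64.5 and 63.4 FPKM in control and 126, 139 and 114 FPKM in irradiated tumours (log2 1.03 ± 0.09, adjusted p = 5.4e-05). The irradiated libraries were all above all control libraries for these 3 genes. Ercc5, the XPG nuclease gene of nucleotide excision repair, rose by 0.59 ± 0.08, Abhd4, a lipase gene, by 0.55 ± 0.08 and Polk, a translesion polymerase gene, by 0.46 ± 0.09, and Polk did not pass without both replicates 2 (adjusted p = 0.058). Xpc and Ddb2, the damage recognition genes of the same repair pathway, did not pass and lay at 5.03, 4.58 and 4.81 FPKM in control and 5.91, 5.17 and 4.85 FPKM in irradiated tumours (Xpc) and 3.55, 4.07 and 3.8 FPKM in control and 4, 3.74 and 4.18 FPKM in irradiated tumours (Ddb2). Rrm2b, the p53-inducible ribonucleotide reductase subunit, was at 3.81, 3.69 and 3.88 FPKM in control and 3.68, 3.88 and 3.62 FPKM in irradiated tumours. Over the list, 8 of 18 rose, beside 7.39% of all tested genes, and none fell (median 0.36). Without the filter 9 rose and 1 fell. The full p53 site, searched as an exact match without a gap, was found in 0 of the 11837 promoters matched to tested genes. It was found in 3 of all 32851 promoters (RefSeq, GRCm38.p6, 250 bases before to 50 after the start, both strands). With so few matches anywhere, this search cannot tell whether p53 targets hold such a site in a looser form or elsewhere.

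**Figure D2:**
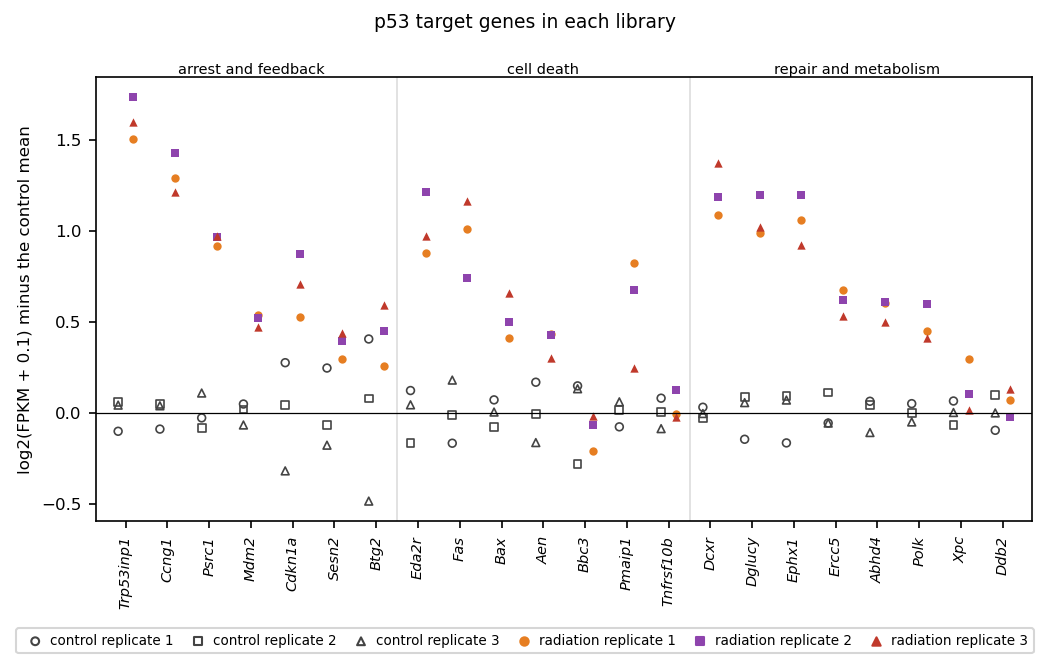
Level of 22 p53 target genes in each library, as log2(FPKM + 0.1) minus the mean of the control libraries (vertical axis), with control libraries as open and irradiated libraries as filled symbols. The radiation libraries lie together and above control for Trp53inp1, Ccng1, Psrc1, Dcxr, Dglucy and Ephx1, and among the control libraries for Bbc3.

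Antiviral effectors, which interferons induce, rose almost throughout. In this list 38 of 40 tested genes rose and none fell, with a median log2 change of 1.07, beside 7.39% of all tested genes that rose. Without control replicate 1 it was 21, and without both replicates 2 it was 26. The other 2 were Isg20, an exonuclease gene, at 5.6, 8.3 and 8.44 FPKM in control and 9.69, 10.8 and 10.6 FPKM in irradiated tumours, and Ifitm1, a membrane protein gene, at 29.8, 36.2 and 40.8 FPKM in control and 37.5, 34.6 and 46.5 FPKM in irradiated tumours. Mx1, a dynamin-like GTPase gene that blocks virus replication (ENSMUSG00000000386, chromosome 16, 97248235 to 97264107, mm39), was at 3.82, 6.59 and 6.16 FPKM in control and 20.6, 28.3 and 21.2 FPKM in irradiated tumours (log2 2.05 ± 0.32, adjusted p = 0.0021). Ifit1, which encodes a protein that binds foreign RNA, was at 11.01, 18.5 and 16.1 FPKM in control and 49.4, 59.2 and 48.5 FPKM in irradiated tumours (log2 1.76 ± 0.34, adjusted p = 0.0055). The groups were separate for both genes, and control replicate 1 was the lowest library. Oas2, an oligoadenylate synthetase gene, was at 16.2, 24.3 and 27.4 FPKM in control and 55.8, 56.2 and 55.6 FPKM in irradiated tumours (log2 1.28 ± 0.22, adjusted p = 0.0035). Isg15, the ubiquitin-like modifier gene, was at 56.7, 68.5 and 65.4 FPKM in control and 131, 132 and 169 FPKM in irradiated tumours (log2 1.15 ± 0.25, adjusted p = 0.011). Cmpk2, a mitochondrial nucleotide kinase gene next to Rsad2, was at 5.52, 9.3 and 8.18 FPKM in control and 21.97, 25.3 and 22.97 FPKM in irradiated tumours (log2 1.58 ± 0.32, adjusted p = 0.0071). The 3 irradiated libraries lay close together in Oas2 and Cmpk2. Samd9l, an antiviral restriction factor gene, rose by 0.98 ± 0.16 and Ifi44 by 1.55 ± 0.26.

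Of the interferon ligands and receptors, most did not pass. Ifnb1, the interferon beta gene, was too low to test, at 0.07, 0.14 and 0.08 FPKM in control and 0.37, 0.28 and 0.14 FPKM in irradiated tumours, where 3 counts in a gene of 2 kb correspond to 0.0785 to 0.0847 FPKM. Ifng, the interferon gamma gene, was at 0.59, 1.78 and 0.83 FPKM in control and 2.58, 0.77 and 2.49 FPKM in irradiated tumours and did not pass (log2 0.83 ± 0.60, adjusted p = 0.4). The type I receptor genes Ifnar1 and Ifnar2 changed by 0.10 ± 0.08 and 0.20 ± 0.08 and did not pass. Ifngr1, a chain of the interferon gamma receptor, was at 14.6, 15.3 and 17.6 FPKM in control and 21.6, 19.9 and 21.8 FPKM in irradiated tumours (log2 0.39 ± 0.09, adjusted p = 0.012), and it did not pass without control replicate 1 (adjusted p = 0.056). Of the transcription factors, Irf7, the amplifier of type I interferon production, was at 33.6, 51.2 and 50.6 FPKM in control and 133, 147 and 145 FPKM in irradiated tumours (log2 1.62 ± 0.30, adjusted p = 0.0048), and Irf5 at 7.29, 8.36 and 6.76 FPKM in control and 12.6, 11.3 and 13.1 FPKM in irradiated tumours (log2 0.69 ± 0.14, adjusted p = 0.0066). Both were higher in every irradiated library than in any control. Usp18, the protease that removes ISG15 and dampens the receptor, rose by 1.11 ± 0.24. In the list of ligands, receptors and signalling genes 9 of 21 rose, beside 7.39% of all tested genes, and none fell. There were 4 rises without control replicate 1, 5 without radiation replicate 1 and 4 without radiation replicate 3.

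The interferon-inducible GTPases, which attack vacuoles that hold intracellular microbes and which interferon gamma induces strongly, had a median of 1.10, a number of calls that depended on the setting, and levels in radiation replicate 2 that were lower than in the other irradiated libraries. Gbp5, a guanylate-binding protein gene, was at 6.94, 9.61 and 11.2 FPKM in control and 30.7, 18.2 and 31.1 FPKM in irradiated tumours (log2 1.5 ± 0.38, adjusted p = 0.021), and its call ended without control replicates 1 or 2 or radiation replicates 1 or 3, or with the robust fit (adjusted p 0.061 to 0.085). Iigp1, an immunity-related GTPase gene, was at 26.5, 42.4 and 48.5 FPKM in control and 116, 63.03 and 112 FPKM in irradiated tumours (log2 1.29 ± 0.39, adjusted p = 0.047), and its call ended without control replicates 1, 2 or 3 or radiation replicates 1 or 3, or with DESeq2, with either limma fit, with the robust fit or without both replicates 2 (adjusted p 0.055 to 0.16). For both genes the groups did not overlap, and radiation replicate 2 lay between the controls and the other irradiated tumours. All 18 tested GTPase genes were higher on average in irradiated tumours, and 7 rose, beside 7.39% of all tested genes. For 16 of the GTPase genes the groups did not overlap, beside 17.9% of all tested genes. Without radiation replicate 2 there were 14 rises, without control replicate 3 there were 2, and without control replicate 1 or 2 or radiation replicate 1 or 3 there were 0. With all 3 libraries of each group, the number of rises was 0 with the robust fit, 1 with either limma fit, 4 with DESeq2, 17 with the 6 libraries alone and 18 without the filter, and it was 1 without both replicates 2. The mean log2(FPKM + 1) difference of the list from the control mean was 1.361, 0.536 and 1.321 in radiation replicates 1, 2 and 3, while that of the antiviral effectors was 1.012, 1.057 and 1.130.

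The promoters of interferon-induced genes are shown because a known regulatory element, the interferon-stimulated response element (ISRE), can be read in them. The core searched was GAAA, any 2 bases and GAAA again, on both strands. The sequences are the 250 bases before the RefSeq start of Ifit1 (chr19:34640639-34640888, plus strand), Isg15 (chr4:156200819-156201068, minus strand), Cxcl10 (chr5:92348890-92349139, minus strand) and Gbp5 (chr3:142496684-142496933, plus strand) in GRCm38.p6, 5′ to 3′ on the gene's strand, and capitals mark matches to the core on either strand.
Ifit1: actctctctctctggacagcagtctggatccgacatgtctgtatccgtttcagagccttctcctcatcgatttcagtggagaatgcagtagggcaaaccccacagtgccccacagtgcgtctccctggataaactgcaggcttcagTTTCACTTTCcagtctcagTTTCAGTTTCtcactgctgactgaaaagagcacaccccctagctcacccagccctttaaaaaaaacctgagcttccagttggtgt
Isg15: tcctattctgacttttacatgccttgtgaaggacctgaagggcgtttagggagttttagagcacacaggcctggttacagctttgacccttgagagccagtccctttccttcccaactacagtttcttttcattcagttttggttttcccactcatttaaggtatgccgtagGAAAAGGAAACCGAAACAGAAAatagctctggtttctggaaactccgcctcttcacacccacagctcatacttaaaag
Cxcl10: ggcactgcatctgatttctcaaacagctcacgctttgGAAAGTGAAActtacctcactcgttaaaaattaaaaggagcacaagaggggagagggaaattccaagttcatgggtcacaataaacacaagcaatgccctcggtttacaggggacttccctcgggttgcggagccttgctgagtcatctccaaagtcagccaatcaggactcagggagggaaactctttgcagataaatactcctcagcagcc
Gbp5: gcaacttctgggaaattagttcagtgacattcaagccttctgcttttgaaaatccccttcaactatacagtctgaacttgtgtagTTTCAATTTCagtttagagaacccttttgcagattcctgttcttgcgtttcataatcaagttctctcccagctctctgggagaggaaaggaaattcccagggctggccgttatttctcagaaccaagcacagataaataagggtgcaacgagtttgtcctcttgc
Ifit1 holds 2 matches and Isg15 holds 3 that overlap each other, whereas Cxcl10 and Gbp5 hold 1 each. The first match begins 104 bases before the start in Ifit1, 78 in Isg15, 213 in Cxcl10 and 165 in Gbp5.

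Over the promoters of 250 bases before to 50 after the start, the ISRE core was found in 43.2% (19 of 44) for the antiviral effectors and in 83.3% (10 of 12) for the GTPases. It was found in 8.23% of promoters of genes that rose and in 17.9% of those of genes that rose at least 2-fold. The share was 3.05% for genes that fell, 3.34% for all tested genes and 3.44% for all promoters. A match to these letters is a description of the sequence and shows no binding.

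Sensors of nucleic acids rose as well, while the cytosolic DNA sensor gene Cgas did not pass. Ddx58, which encodes the RNA sensor RIG-I, was at 9.85, 12.3 and 12.8 FPKM in control and 21.4, 22.3 and 21.2 FPKM in irradiated tumours (log2 0.87 ± 0.15, adjusted p = 0.0036). Ifih1, which encodes the RNA sensor MDA5, was at 5.4, 7.18 and 8.6 FPKM in control and 14.9, 15.6 and 15.2 FPKM in irradiated tumours (log2 1.08 ± 0.19, adjusted p = 0.0039). Tlr7, an endosomal receptor for single-stranded RNA, was at 2.21, 2.29 and 2.85 FPKM in control and 5.6, 6.15 and 4.69 FPKM in irradiated tumours (log2 1.14 ± 0.15, adjusted p = 0.001). The groups were separate for the 3 RNA sensors. Sting1, the adaptor that carries the signal of cytosolic DNA, was at 17.2, 16.3 and 18.6 FPKM in control and 26.9, 24.2 and 28.5 FPKM in irradiated tumours (log2 0.58 ± 0.11, adjusted p = 0.0044). Cgas, which encodes the enzyme that detects cytosolic DNA and signals to STING, was at 6.53, 7.13 and 7.24 FPKM in control and 6.33, 7.15 and 6.39 FPKM in irradiated tumours and did not pass (log2 -0.10 ± 0.10, adjusted p = 0.54). Dhx58 rose by 1.25 ± 0.24, Tlr3 by 1.01 ± 0.18 and Tlr8 by 0.84 ± 0.12. Over the list of sensors, 16 of 22 rose, beside 7.39% of all tested genes, and none fell, with a median of 0.83. Trex1, the exonuclease that degrades cytosolic DNA, was listed at 0 in all 6 libraries. Such a value cannot tell absent RNA from reads that the counting left out.

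Genes of macrophages, the phagocytes that make up much of the host tissue in such tumours, rose in 22 of 33 tested cases, and none fell (median 0.72). Among all tested genes 7.39% rose. Adgre1, which encodes the macrophage surface protein F4/80 (ENSMUSG00000004730, chromosome 17, 57665691 to 57790527, mm39), was at 13.2, 12.3 and 11.5 FPKM in control and 31.9, 28.4 and 35.7 FPKM in irradiated tumours (log2 1.35 ± 0.14, adjusted p = 0.00017). Lyz2, the macrophage lysozyme gene, was at 629.7, 615 and 485 FPKM in control and 1184, 1239 and 1295 FPKM in irradiated tumours (log2 1.08 ± 0.10, adjusted p = 7.3e-05). C1qa, a chain of complement C1q that macrophages make, was at 201, 189.8 and 185 FPKM in control and 339, 309 and 388 FPKM in irradiated tumours (log2 0.82 ± 0.09, adjusted p = 0.00025), and C1qb and C1qc rose by 0.76 ± 0.09 and 0.69 ± 0.11. For each of these genes the lowest irradiated library was above the highest control. Ms4a7, a membrane protein gene of tissue macrophages, was at 6.11, 6.73 and 6.11 FPKM in control and 15.2, 14.4 and 14.99 FPKM in irradiated tumours (log2 1.21 ± 0.15, adjusted p = 0.00066). Fcgr1, the high-affinity IgG receptor gene, rose by 0.87 ± 0.19, Trem2, a lipid-sensing receptor gene, by 0.72 ± 0.14 and Apoe, the apolipoprotein E gene, by 0.90 ± 0.17. The summed level of the list was 3820 to 5250 FPKM in control and 4950 to 5530 FPKM in irradiated tumours. Macrophages also express interferon-induced, lysosomal, complement and chemokine genes, and the part of these markers in the changes of those lists was not tested. Without both replicates 2, 18 macrophage genes rose, and without the filter 27 rose and 1 fell.

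Not all macrophage genes moved alike. The receptor gene of the lineage, Csf1r, was at 23.1, 17.4 and 16.6 FPKM in control and 22.9, 23.9 and 25.3 FPKM in irradiated tumours and did not pass (log2 0.31 ± 0.12, adjusted p = 0.11). Itgam, which encodes CD11b, was at 10.8, 10.3 and 9.41 FPKM in control and 11.9, 12.1 and 12.7 FPKM in irradiated tumours (log2 0.24 ± 0.08, adjusted p = 0.057). Spp1, the osteopontin gene and the most abundant member, was at 3565, 3089 and 2426 FPKM in control and 2439, 2622 and 1906 FPKM in irradiated tumours and did not pass (log2 -0.41 ± 0.18, adjusted p = 0.16). These 3 changes were small next to that of Adgre1. Genes known from alternatively activated and perivascular macrophages were highest in radiation replicate 2. Mrc1, the mannose receptor gene, was at 23.4, 23.3 and 20.1 FPKM in control and 21.8, 53.5 and 27.5 FPKM in irradiated tumours. Lyve1, a hyaluronan receptor gene, was at 1.53, 1.85 and 1.41 FPKM in control and 1.53, 14.6 and 3.22 FPKM in irradiated tumours. Ccl17, a chemokine gene of such cells, was at 0.42, 0.51 and 0.44 FPKM in control and 0.43, 4.82 and 0.21 FPKM in irradiated tumours. None of these 3 genes passed, and Mrc1 and Lyve1 were above all controls in replicate 3 as well. Folr2, a folate receptor gene, was highest in the same library but raised in all 3, at 2.15, 3.96 and 3.43 FPKM in control and 7.22, 15.9 and 8.99 FPKM in irradiated tumours (log2 1.72 ± 0.28, adjusted p = 0.0029), with 56.9% of its sequence shared with other loci. Nos2, the inducible nitric oxide synthase gene of inflammatory macrophages, showed the other order, at 2.96, 2.42 and 3.46 FPKM in control and 7.45, 2.77 and 9.72 FPKM in irradiated tumours, and did not pass either.

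Lysosomal genes, which macrophages express strongly, rose in 18 of 34 tested cases, beside 7.39% of all tested genes, with a median of 0.31. Lgmn, the legumain protease gene, was at 109, 113 and 110.02 FPKM in control and 182, 210.2 and 177 FPKM in irradiated tumours (log2 0.75 ± 0.08, adjusted p = 0.00042). Grn, the progranulin gene, was at 81.02, 85.7 and 92.3 FPKM in control and 139.9, 149 and 150.3 FPKM in irradiated tumours (log2 0.74 ± 0.10, adjusted p = 0.001). Ctsc, which encodes the cathepsin that activates granzymes, was at 35.3, 36.05 and 40.2 FPKM in control and 69.9, 56.3 and 75.5 FPKM in irradiated tumours (log2 0.83 ± 0.13, adjusted p = 0.0021). The groups were separate in these genes, and Ctss, a cathepsin gene of antigen-presenting cells, rose more, by 1.01 ± 0.16. Ctsd and Ctsb rose by 0.52 ± 0.11 and 0.44 ± 0.10. Ctsl was the 1 member that fell, at 252, 216 and 185 FPKM in control and 163, 197 and 161 FPKM in irradiated tumours (log2 -0.35 ± 0.11, adjusted p = 0.046), with overlapping groups, and it did not pass without control replicates 1 or 2 or radiation replicates 1 or 3, or with either limma fit, with the 6 libraries alone, with library totals or without both replicates 2 (adjusted p 0.053 to 0.19).

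Complement genes outside C1q were higher on average for all 17 tested members. Of these 9 rose (14 without the filter), beside 7.39% of all tested genes. C3, the central component, was at 29.7, 28.1 and 26.6 FPKM in control and 62.6, 55.3 and 72.9 FPKM in irradiated tumours (log2 1.15 ± 0.15, adjusted p = 0.001). Cfp, the properdin gene that stabilises the alternative pathway, was at 33.3, 33.8 and 28.8 FPKM in control and 51.1, 55.6 and 63.5 FPKM in irradiated tumours (log2 0.80 ± 0.12, adjusted p = 0.0018), and C3ar1, the receptor gene for the C3a fragment, at 11.3, 15.8 and 15.5 FPKM in control and 26.7, 30.5 and 26.7 FPKM in irradiated tumours (log2 0.95 ± 0.16, adjusted p = 0.0029). No library of one group reached into the other for these genes. Cfb, the factor B gene, rose by 1.5 ± 0.20, but 75.5% of its sequence is shared with other loci, so its counts are uncertain.

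Chemokines that attract monocytes and effector T cells rose, and the rest of that list mostly did not pass. Of 26 tested genes 10 rose, beside 7.39% of all tested genes, and none fell (median 0.86). Without the filter 18 rose. Ccl8, a monocyte chemokine gene (ENSMUSG00000009185, chromosome 11, 82006011 to 82007625, mm39), was at 56.6, 96.7 and 83.2 FPKM in control and 296, 323 and 413 FPKM in irradiated tumours (log2 2.10 ± 0.30, adjusted p = 0.0014). Ccl7, another monocyte attractant, was at 29.6, 36.5 and 39.8 FPKM in control and 63.3, 119 and 75.1 FPKM in irradiated tumours (log2 1.26 ± 0.20, adjusted p = 0.0027), and Ccl2 at 46.9, 45.8 and 66.1 FPKM in control and 77.4, 129 and 103 FPKM in irradiated tumours (log2 0.93 ± 0.17, adjusted p = 0.0047). Radiation replicate 2 was the highest library for Ccl7 and Ccl2 but not for Ccl8. Cxcl10, a ligand of the chemokine receptor CXCR3 on T cells, was at 6.03, 7.85 and 8.8 FPKM in control and 24.5, 34.9 and 33.9 FPKM in irradiated tumours (log2 2.01 ± 0.30, adjusted p = 0.0016). Cxcl9, another ligand of that receptor which interferon gamma induces, was at 23.9, 22.1 and 28.5 FPKM in control and 64.9, 37.2 and 68.6 FPKM in irradiated tumours (log2 1.17 ± 0.24, adjusted p = 0.0089). Thus Cxcl10 was high in all irradiated libraries, and Cxcl9 was lower in replicate 2 than in the others. Ccl5 was at 5.63, 6.76 and 5.88 FPKM in control and 12.6, 14.8 and 18.6 FPKM in irradiated tumours and did not pass (log2 1.30 ± 0.41, adjusted p = 0.054). Cd274, which encodes the checkpoint ligand PD-L1, was at 12.3, 12.6 and 13.7 FPKM in control and 37.96, 21.1 and 34.5 FPKM in irradiated tumours (log2 1.25 ± 0.37, adjusted p = 0.04), and its call ended without control replicates 1, 2 or 3 or radiation replicates 1 or 3, or with either limma fit, with the robust fit or without both replicates 2 (adjusted p 0.066 to 0.13).

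**Figure D3:**
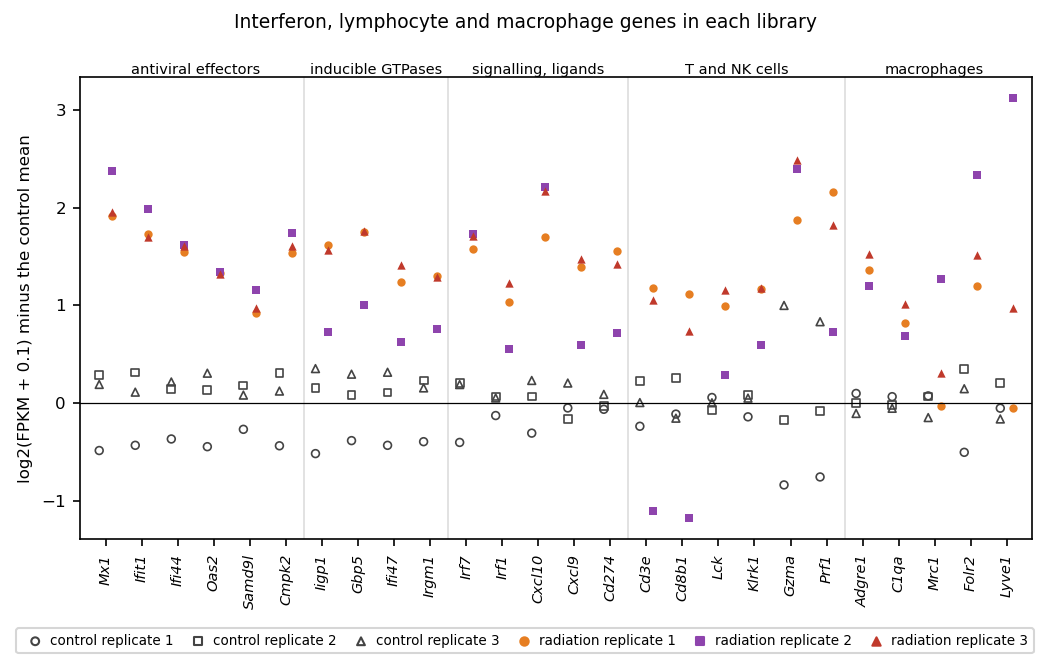
Level of 26 interferon, lymphocyte and macrophage genes in each library, as log2(FPKM + 0.1) minus the mean of the control libraries (vertical axis), with control libraries as open and irradiated libraries as filled symbols. Radiation replicate 2 (square, filled) lies with the other irradiated libraries for antiviral effectors, below them for the GTPases, Cxcl9 and T cell genes, and above them for Mrc1, Folr2 and Lyve1.

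T cell genes were higher than control in radiation replicates 1 and 3 and mostly lower in replicate 2. Cd3e, a chain of the T cell receptor complex, was at 0.83, 1.18 and 1 FPKM in control and 2.37, 0.41 and 2.17 FPKM in irradiated tumours. Cd8a, the coreceptor gene of cytotoxic T cells, was at 3.23, 4.5 and 4.1 FPKM in control and 7.65, 1.06 and 7.41 FPKM in irradiated tumours. Both genes were above all controls in radiation replicates 1 and 3 and below all controls in replicate 2, and neither passed (0.69 ± 0.52 and 0.42 ± 0.51). Of 18 tested T cell genes 2 rose, Lck and Thy1, beside 7.39% of all tested genes, and Thy1 is also a fibroblast gene. Lck, the kinase of the T cell receptor, was at 2.91, 2.66 and 2.8 FPKM in control and 5.64, 3.44 and 6.34 FPKM in irradiated tumours (log2 0.85 ± 0.25, adjusted p = 0.037), and did not pass without control replicates 1, 2 or 3 or radiation replicates 1 or 3, or with either limma fit (adjusted p 0.06 to 0.13). Thy1 was at 6.45, 7.86 and 8.3 FPKM in control and 14.01, 10.2 and 13.4 FPKM in irradiated tumours, and did not pass without control replicates 1 or 2 or radiation replicates 1 or 3 (adjusted p 0.05 to 0.081). The list had 5 rises without radiation replicate 2 and 0 without control replicate 1 or 2 or radiation replicate 1 or 3, and it had 1 with either limma fit and 11 without the filter. Its summed level was 46.6 to 56.5 FPKM in control and 45.3 to 108 FPKM in irradiated tumours. Foxp3, the regulatory T cell factor, was too low to test, at 0.19 to 0.33 FPKM.

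The granzyme genes Gzma and Gzmb rose and were high in radiation replicate 2 too. Gzma, the granzyme A gene, was at 4.29, 6.87 and 15.6 FPKM in control and 28.5, 41.01 and 43.7 FPKM in irradiated tumours (log2 2.06 ± 0.32, adjusted p = 0.0022). Gzmb, the granzyme B gene, was at 11.6, 16.2 and 24.97 FPKM in control and 69.3, 45.7 and 70.8 FPKM in irradiated tumours (log2 1.79 ± 0.38, adjusted p = 0.01). Control replicate 3 was the highest control for both, yet below every irradiated library. Gzmc, the granzyme C gene, rose as well. Its call ended without control replicates 1 or 2, radiation replicates 1 or 3 or both replicates 2 (adjusted p 0.093 to 0.13). It also ended with DESeq2, with the robust fit or with the 6 libraries alone (adjusted p 0.051 to 0.11). Eomes, a transcription factor gene of natural killer (NK) and memory T cells, was at 0.34, 0.39 and 0.67 FPKM in control and 1.36, 1.26 and 1.83 FPKM in irradiated tumours (log2 1.64 ± 0.32, adjusted p = 0.0065). Ncr1, which encodes the NK cell receptor NKp46, was at 1.49, 1.02 and 2.31 FPKM in control and 3.59, 3.8 and 4.18 FPKM in irradiated tumours (log2 1.24 ± 0.26, adjusted p = 0.01), and did not pass without both replicates 2 (adjusted p = 0.058). Perforin, the pore gene (Prf1), was at 4.33, 6.95 and 13.2 FPKM in control and 33.2, 12.3 and 26.4 FPKM in irradiated tumours (log2 1.53 ± 0.41, adjusted p = 0.028), with overlap, and did not pass without control replicates 1 or 2 or radiation replicates 1 or 3, or with the robust fit (adjusted p 0.07 to 0.11). Klrb1c, a defining NK cell marker, was at 0.02 to 0.4 FPKM and was not tested. In this list 8 of 21 tested genes rose, beside 7.39% of all tested genes, and none fell. All 21 were higher on average (median 0.88). The count was 4 without control replicate 1 or 2 or radiation replicate 1 or 3. Cytotoxic genes that rose numbered 5 with the robust fit and 17 without the filter. The summed level was 66.2, 120 and 306 FPKM in control and 513, 228 and 414 FPKM in irradiated tumours.

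Markers of B cells, neutrophils and mast cells were scarce or gave few calls, beside 7.39% of all tested genes that rose. Dendritic cell genes gave more calls, while lineage markers of these cells were too low to test. The B cell marker gene Ms4a1, which encodes CD20, was at 0 to 0.03 FPKM, and the summed level of 13 B and plasma cell genes was 5.95 to 9.57 FPKM in control and 3.67 to 13.7 FPKM in irradiated tumours. Of 6 tested dendritic cell genes 4 rose, among them the costimulatory genes Cd80 at 6.17, 6.91 and 5.15 FPKM in control and 8.8, 10.8 and 8.93 FPKM in irradiated tumours (log2 0.62 ± 0.11, adjusted p = 0.0045) and Cd86 at 2.82, 2.3 and 2.01 FPKM in control and 3.76, 4.15 and 3.87 FPKM in irradiated tumours (log2 0.70 ± 0.13, adjusted p = 0.0048), and 2 rose without control replicate 1 or 3 or radiation replicate 1 or 3. The lineage markers Flt3, Xcr1 and Clec9a were at 0.08 to 0.17, 0.26 to 0.55 and 0.26 to 0.37 FPKM and were not tested. Cd80 and Cd86 are also made by macrophages. The other 2 risers were Bst2 and Ccr7. The call for Bst2 ended without control replicates 1 or 3 or radiation replicates 1 or 3, or with the robust fit (adjusted p 0.064 to 0.11). That for Ccr7 ended without any 1 library, with either limma fit, with the 6 libraries alone or without both replicates 2 (adjusted p 0.054 to 0.32). Of 12 neutrophil genes Csf3r, the G-CSF receptor gene, rose, at 3.69, 2.52 and 3.07 FPKM in control and 7.4, 4.82 and 7.21 FPKM in irradiated tumours (log2 1.04 ± 0.19, adjusted p = 0.0044), while 2 genes rose without control replicate 1 or radiation replicate 2, 2 with DESeq2 and 3 without the filter. The summed level of neutrophil genes was 26.2 to 41.1 FPKM in control and 22.7 to 62.6 FPKM in irradiated tumours. Ly6g was listed at 0 in every library, which cannot tell absent RNA from reads that the counting left out. S100a9 was at 12.02, 6.11 and 4.65 FPKM in control and 11.1, 2.93 and 21.1 FPKM in irradiated tumours. Of 7 mast cell, basophil and eosinophil genes none passed (median 0.59), but there were rises under other settings, 2 with the 6 libraries alone and 5 without the filter. The summed level was 51.0 to 84.4 FPKM in control and 97.7 to 109 FPKM in irradiated tumours.

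None of 15 endothelial genes passed (median 0.02), and their summed level was 154 to 164 FPKM in control and 162 to 174 FPKM in irradiated tumours, though 1 gene rose without control replicate 1 or without the filter. Pecam1, the CD31 gene, was at 6.26, 4.01 and 4.79 FPKM in control and 6.69, 5.18 and 5.44 FPKM in irradiated tumours. Of 28 fibroblast and matrix genes 3 rose (Thy1, Bgn and Dpt), beside 7.39% of all tested genes, and none fell. Bgn, the biglycan gene, was at 12.2, 10.5 and 9.5 FPKM in control and 14.5, 22.9 and 13.1 FPKM in irradiated tumours (log2 0.62 ± 0.17, adjusted p = 0.033), and did not pass without control replicates 2 or 3 or radiation replicate 2, or with either limma fit, with the robust fit, with the 6 libraries alone or without both replicates 2 (adjusted p 0.06 to 0.18). Dpt, the dermatopontin gene, rose by 0.81 ± 0.23 and did not pass without control replicates 2 or 3 or radiation replicates 2 or 3, or without both replicates 2 (adjusted p 0.08 to 0.15). Col1a1, the main collagen gene, was at 27.6, 26.5 and 34.2 FPKM in control and 25.7, 42.2 and 38.5 FPKM in irradiated tumours and did not pass. The median of this list was 0.225, and -0.039 without radiation replicate 2, so its direction rested on that library; 1 gene rose without radiation replicate 2 or control replicate 3 or without both replicates 2, and 0 without control replicate 2. Without the filter 9 of these genes rose and 3 fell. Of 17 skin keratinocyte genes only Krt10 and Cdsn were tested and both fell. Cdsn, the corneodesmosin gene, was at 12.98, 4.94 and 5.5 FPKM in control and 1.71, 2.38 and 1.56 FPKM in irradiated tumours (log2 -2.08 ± 0.38, adjusted p = 0.0044). Krt10 was at 1.96, 1.88 and 3.77 FPKM in control and 1.08, 1.07 and 1.37 FPKM in irradiated tumours and did not pass without control replicate 3 or radiation replicates 1, 2 or 3, or with either limma fit or without both replicates 2 (adjusted p 0.052 to 0.1). Krt14 and Krt5, the basal keratin genes, were at 0.06, 0.06 and 2.47 (Krt14) and 0, 0 and 1.34 FPKM (Krt5) in control tumours, with the signal in replicate 3, and at most 0.06 FPKM in irradiated tumours. Krt10 was likewise highest in control replicate 3, while Cdsn was highest in control replicate 1 and did not follow the keratin genes. Muscle RNA was highest in radiation replicate 1, where Acta1, the skeletal actin gene, stood at 10.9 FPKM, while the other 5 libraries had 0.56 to 2.86 FPKM. Whether the amount of skin or muscle in a sample bears on other genes was not tested.

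**Figure D4:**
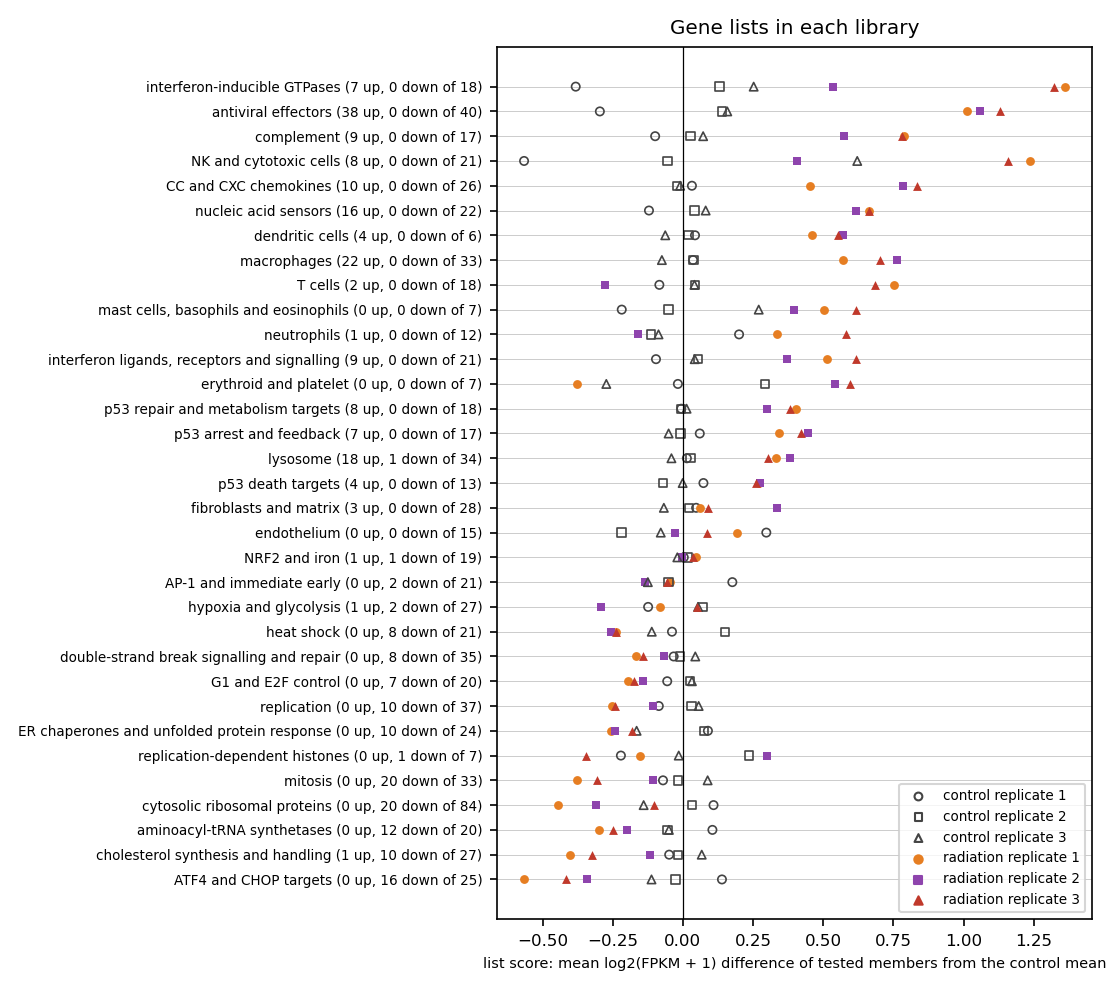
Score of each gene list with at least 5 tested genes in each library, the mean difference in log2(FPKM + 1) from the control mean (horizontal axis), ordered by the median log2 fold change. Open symbols are control and filled symbols irradiated libraries, and the numbers beside a list count the genes that rose and fell. Antiviral effectors, sensors, macrophage and p53 lists separate the groups fully, and the T cell list has radiation replicate 2 below all control libraries.

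Genes of cell division fell, by small amounts. In the list of mitosis genes 20 of 33 fell and none rose, all 33 were lower on average, and the median was -0.31, beside 5.85% of all tested genes that fell. Kif23, a kinesin gene of the midzone in dividing cells, was at 14.6, 15.5 and 16.1 FPKM in control and 10.3, 12.6 and 11.3 FPKM in irradiated tumours (log2 -0.46 ± 0.07, adjusted p = 0.0022). Prc1, which encodes the protein that bundles midzone microtubules, was at 21.1, 21.7 and 22.8 FPKM in control and 15.7, 18.6 and 15.5 FPKM in irradiated tumours (log2 -0.42 ± 0.07, adjusted p = 0.0034). Cenpa, the centromeric histone gene, was at 19.98, 18.9 and 20.7 FPKM in control and 14.5, 15.3 and 16.7 FPKM in irradiated tumours (log2 -0.38 ± 0.07, adjusted p = 0.006). The groups did not overlap in these genes, and radiation replicate 2 was the irradiated library nearest to control for Kif23 and Prc1. Kif2c fell by 0.35 ± 0.07 and Bub1b, a spindle checkpoint kinase gene, by 0.43 ± 0.09 on the log2 scale. Mki67, which encodes the proliferation marker Ki-67, was at 62.7, 66.99 and 68.03 FPKM in control and 48.5, 58.8 and 45.7 FPKM in irradiated tumours (log2 -0.40 ± 0.09, adjusted p = 0.015), and its call ended without control replicate 2 or radiation replicates 1 or 3 (adjusted p 0.051 to 0.07). The number of mitosis genes that fell was 9 without control replicate 2 or 3, 5 without radiation replicate 1 and 8 without radiation replicate 3, and 23 without both replicates 2. It was 10 with the 6 libraries alone.

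Mitotic genes are known to share a promoter element, the cell cycle genes homology region (CHR), which is shown for 2 genes that fell. The letters searched were TTTGAA on both strands, and capitals mark the match in the 250 bases before the start of Prc1 (chr7:80294226-80294475, plus strand) and Kif2c (chr4:117178773-117179022, minus strand), from RefSeq in GRCm38.p6 and on the gene's strand.
Prc1: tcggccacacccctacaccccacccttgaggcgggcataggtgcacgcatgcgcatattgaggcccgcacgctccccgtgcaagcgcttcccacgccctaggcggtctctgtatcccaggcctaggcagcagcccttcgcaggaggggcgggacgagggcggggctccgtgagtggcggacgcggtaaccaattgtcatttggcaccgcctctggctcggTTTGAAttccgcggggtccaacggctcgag
Kif2c: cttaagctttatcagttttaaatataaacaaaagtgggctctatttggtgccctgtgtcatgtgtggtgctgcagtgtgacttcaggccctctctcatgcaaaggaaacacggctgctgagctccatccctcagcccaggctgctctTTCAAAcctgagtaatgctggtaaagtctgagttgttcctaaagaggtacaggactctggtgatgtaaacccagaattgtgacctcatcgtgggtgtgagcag
The match begins 30 bases before the start in Prc1 and 103 before it in Kif2c. Prc1 has 2 promoters in the table, of which the one with the match before the start is shown. The CHR letters were present in 73.3% of promoters of mitosis genes (22 of 30), in 18.6% of promoters of genes that fell, in 14.6% for genes that rose, in 19.1% for genes that rose at least 2-fold, in 12.2% for all tested genes and in 17.9% of all promoters. The share among genes that fell was thus no higher than among the larger rises. The CCAAT letters, often found beside a CHR, were present in 70.0% of mitosis promoters, in 46.3% for genes that fell, in 34.4% for genes that rose and in 38.0% for all tested genes. High shares were not particular to mitosis genes, with 86.4% for ER chaperones, 70.8% for cholesterol genes and 60.0% for p53 arrest genes. Other lists had lower shares, such as 21.9% for macrophage genes.

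Genes of DNA replication fell in 10 of 37 cases, beside 5.85% of all tested genes, and none rose (median -0.24). Dut, which encodes the enzyme that keeps uracil out of DNA, was at 34.2, 29.8 and 32.1 FPKM in control and 18.1, 20.9 and 20.9 FPKM in irradiated tumours (log2 -0.71 ± 0.09, adjusted p = 0.00066). Pola1, the catalytic subunit of the primase-linked polymerase, was at 11.4, 11.3 and 11.3 FPKM in control and 7.68, 9.24 and 8.09 FPKM in irradiated tumours (log2 -0.47 ± 0.07, adjusted p = 0.0022). Rrm2, the ribonucleotide reductase subunit of S phase, was at 55.3, 62.2 and 60.7 FPKM in control and 42.8, 48.2 and 42.7 FPKM in irradiated tumours (log2 -0.44 ± 0.08, adjusted p = 0.0044), and Pcna, the sliding clamp, at 126, 139 and 136 FPKM in control and 102, 116 and 104 FPKM in irradiated tumours (log2 -0.34 ± 0.07, adjusted p = 0.0067). All irradiated libraries were below all controls in these genes, and replicate 2 was again nearest to control for Pola1, Rrm2 and Pcna. The list had 16 falls without radiation replicate 2, 5 without control replicate 2 or radiation replicate 3, 6 without control replicate 3 and 4 without radiation replicate 1, and it had 6 with either limma fit or with the 6 libraries alone. The E2F core TTCCCGC (both strands) was present in 41.2% of the promoters of replication genes (14 of 34), in 12.6% for genes that fell, in 4.66% for genes that rose and in 8.25% for all tested genes. It was present in 46.4% (13 of 28) for the double-strand break genes described next and in 21.1% for G1 and E2F regulators. Among G1 and E2F regulators 7 of 20 fell, beside 5.85% of all tested genes, and none rose. The count was 3 without radiation replicate 1 and 4 with either limma fit. E2f7, a repressor of E2F targets, was at 7.95, 8.4 and 8.02 FPKM in control and 5.94, 6.37 and 5.8 FPKM in irradiated tumours (log2 -0.46 ± 0.07, adjusted p = 0.0022). Ccne2, the cyclin E2 gene, was at 12.4, 15.3 and 13.2 FPKM in control and 9.11, 11.2 and 8.63 FPKM in irradiated tumours (log2 -0.52 ± 0.11, adjusted p = 0.0079). Both were separate between groups, while the D-type cyclin gene Ccnd1 was at 219.8, 207 and 236 FPKM in control and 215, 214 and 219.7 FPKM in irradiated tumours and did not pass.

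Genes that sense and repair double-strand breaks gave falls and no rises. Of 35 tested genes 8 fell, beside 5.85% of all tested genes, and the median was -0.23. H2ax, which encodes the histone variant that is phosphorylated at breaks, was at 59.2, 55.8 and 68.3 FPKM in control and 38.97, 38.2 and 48.9 FPKM in irradiated tumours (log2 -0.57 ± 0.11, adjusted p = 0.0059). Mre11a, a nuclease gene of the break-binding complex, was at 11.8, 12.1 and 12.5 FPKM in control and 10.4, 10.3 and 9.4 FPKM in irradiated tumours (log2 -0.31 ± 0.07, adjusted p = 0.011). The groups were separate in these genes. Fancd2, of the crosslink repair pathway, fell by 0.41 ± 0.10 on the log2 scale and did not pass without both replicates 2 (adjusted p = 0.051). Atm, the apical kinase gene, was at 5.45, 5.45 and 6.59 FPKM in control and 6.86, 6.45 and 5.79 FPKM in irradiated tumours and Trp53bp1, an end-protection factor gene, at 3.43, 3.3 and 3.5 FPKM in control and 4.06, 3.64 and 4.02 FPKM in irradiated tumours, and neither passed. The count of falls was 5 without any 1 control library and 3 without radiation replicate 1 or 3. Falls in repair genes numbered 3 with limma on log2(FPKM + 1) and 4 with limma on log2(FPKM + 0.1) or with the 6 libraries alone. Of 7 tested replication-dependent histone genes H1f2 fell, at 16.3, 25.96 and 15.7 FPKM in control and 12.5, 14.8 and 12.7 FPKM in irradiated tumours, and did not pass without control replicates 1 or 2 or radiation replicates 1, 2 or 3, or with either limma fit, with the robust fit, with the 6 libraries alone, with library totals, with median-ratio scaling or without both replicates 2 (adjusted p 0.05 to 0.2). Most of the 65 listed histone genes were near 0, and the labels do not say that RNA without a poly(A) tail was kept.

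Genes of the amino acid response, which the transcription factor ATF4 and its partner CHOP activate when amino acids are short or protein folding is disturbed, had the lowest median of the lists with at least 5 tested genes. Of 25 tested genes 16 fell, beside 5.85% of all tested genes, and none rose (median -0.53). Trib3, a pseudokinase gene induced by this pathway (ENSMUSG00000032715, chromosome 2, 152179342 to 152185952, mm39), was at 34.1, 27.6 and 19.3 FPKM in control and 8.77, 11.7 and 10.6 FPKM in irradiated tumours (log2 -1.42 ± 0.18, adjusted p = 0.00097). Ddit3, which encodes CHOP, was at 54.9, 51.3 and 38.1 FPKM in control and 22.4, 26.9 and 25.1 FPKM in irradiated tumours (log2 -0.98 ± 0.14, adjusted p = 0.0013). Both were lower in every irradiated library than in every control. Atf5, a related factor gene, was at 231, 223 and 208 FPKM in control and 111, 146 and 153 FPKM in irradiated tumours (log2 -0.72 ± 0.11, adjusted p = 0.0022). Shmt2, which encodes the mitochondrial enzyme of serine and glycine exchange, was at 106, 86.5 and 88.2 FPKM in control and 55.8, 70.1 and 62.1 FPKM in irradiated tumours (log2 -0.60 ± 0.09, adjusted p = 0.0022). Asns, the asparagine synthetase gene, was at 111, 92.2 and 90.1 FPKM in control and 51.4, 70.5 and 56.2 FPKM in irradiated tumours (log2 -0.75 ± 0.13, adjusted p = 0.0036). The order of the irradiated libraries was the same in Asns and Shmt2, with replicate 1 lowest and replicate 2 highest. Psat1, of serine synthesis, fell by 0.52 ± 0.09 and Mthfd2, of mitochondrial folate metabolism, by 0.74 ± 0.13 on the log2 scale. Atf4 itself was at 244, 247 and 191 FPKM in control and 141, 187 and 153 FPKM in irradiated tumours (log2 -0.53 ± 0.12, adjusted p = 0.011), and did not pass without radiation replicate 1 (adjusted p = 0.057). Members that did not pass include the p53 target Sesn2, at log2 0.34 ± 0.11, the cystine transporter gene Slc7a11, at 1.9, 1.25 and 1.25 FPKM in control and 0.75, 1.16 and 1.34 FPKM in irradiated tumours, and Atf3, at 4.61, 4.62 and 4.22 FPKM in control and 4.09, 4.07 and 7.32 FPKM in irradiated tumours. Without control replicate 1 there were 13 falls and 1 rise, and without both replicates 2 there were 16 falls. Rises in place of none numbered 1 with DESeq2, with the robust fit, with library totals or without the filter.

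The cytosolic enzymes that load tRNAs with amino acids include known ATF4 targets. Of 20 such genes 12 fell, beside 5.85% of all tested genes, and none rose (median -0.33). The count was 7 without control replicate 1 or radiation replicate 1, and 1 rose without the filter. Aars, for alanine, was at 48.96, 40.6 and 35.3 FPKM in control and 26.1, 27.9 and 27.4 FPKM in irradiated tumours (log2 -0.65 ± 0.10, adjusted p = 0.0017). Iars, for isoleucine, was at 48.2, 41.5 and 42.7 FPKM in control and 32.3, 34.4 and 29.6 FPKM in irradiated tumours (log2 -0.49 ± 0.08, adjusted p = 0.0023), and Yars, for tyrosine, at 12.9, 11.3 and 10.6 FPKM in control and 7.8, 8.47 and 7.76 FPKM in irradiated tumours (log2 -0.57 ± 0.09, adjusted p = 0.0024). The irradiated libraries were below the controls in all 3 genes. Eprs, for glutamate and proline, fell by 0.53 ± 0.09 and Mars1, for methionine, by 0.46 ± 0.09 on the log2 scale. An ATF4 core, searched as TGATGNAA on both strands, is shown in the 250 bases before the start of Asns (chr6:7693210-7693459, minus strand) and Aars (chr8:111033592-111033841, plus strand), from RefSeq in GRCm38.p6 and on the gene's strand, with the match in capitals.
Asns: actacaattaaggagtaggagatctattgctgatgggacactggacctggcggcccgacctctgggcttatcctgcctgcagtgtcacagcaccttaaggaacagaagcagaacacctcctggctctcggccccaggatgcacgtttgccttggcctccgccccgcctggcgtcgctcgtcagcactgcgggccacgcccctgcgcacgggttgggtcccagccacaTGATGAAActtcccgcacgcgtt
Aars: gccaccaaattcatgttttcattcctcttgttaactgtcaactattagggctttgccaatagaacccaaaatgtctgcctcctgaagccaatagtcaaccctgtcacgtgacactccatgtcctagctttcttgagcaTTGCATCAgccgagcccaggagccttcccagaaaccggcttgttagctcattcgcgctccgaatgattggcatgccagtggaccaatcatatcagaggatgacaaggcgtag
The match begins 23 bases before the start in Asns and 112 before it in Aars. It was present in 30.8% of promoters of ATF4 and CHOP targets (8 of 26) and 38.5% of those of the synthetases (5 of 13), beside 2.26% for all tested genes, 4.12% for genes that fell, 4.37% for genes that rose and 3.97% of all promoters. Genes that fell and genes that rose thus held it at a similar share.

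Chaperones of the endoplasmic reticulum (ER) and of the cytosol were lower as well. Of 24 ER genes 10 fell, beside 5.85% of all tested genes, and none rose (median -0.26). Hspa5, which encodes the chief ER chaperone BiP, was at 316, 319 and 238 FPKM in control and 192, 186 and 202 FPKM in irradiated tumours (log2 -0.62 ± 0.10, adjusted p = 0.0025). Manf, a secreted ER stress protein gene, was at 36.2, 34.1 and 25.5 FPKM in control and 20.1, 22.5 and 23.9 FPKM in irradiated tumours (log2 -0.56 ± 0.11, adjusted p = 0.0068). Control replicate 3 was the lowest control for both genes and still above the irradiated libraries, and Manf did not pass without both replicates 2 (adjusted p = 0.054). Xbp1, the transcription factor gene of the unfolded protein response, was at 36.4, 34.8 and 25.3 FPKM in control and 23.8, 25.3 and 26.9 FPKM in irradiated tumours and did not pass (log2 -0.37 ± 0.12, adjusted p = 0.061). The number that fell was 3 without control replicate 1 or 2, 2 without radiation replicate 1 and 5 without radiation replicate 2 or 3. It was also 3 without both replicates 2, 4 with the 6 libraries alone and 6 with either limma fit. Of 21 heat shock genes 8 fell, beside the same 5.85%, and none rose (median -0.22). Hspd1, the mitochondrial chaperonin gene, was at 244, 263 and 222 FPKM in control and 163, 183 and 174 FPKM in irradiated tumours (log2 -0.52 ± 0.08, adjusted p = 0.0016), and Hspa1a, the inducible HSP70 gene, at 1.75, 2.36 and 1.03 FPKM in control and 0.41, 0.46 and 0.67 FPKM in irradiated tumours (log2 -1.76 ± 0.31, adjusted p = 0.0041). Their groups were separate, but 53.1% of the sequence of Hspd1 and 70.1% of that of Hspa1a are shared with other loci, so these counts are uncertain. The heat shock count was 5 without control replicate 1 or radiation replicate 3, 2 without control replicate 2 or radiation replicate 1 and 3 without radiation replicate 2, and likewise 2 without both replicates 2, 3 with either limma fit and 5 with the 6 libraries alone or with library totals. A heat shock element, searched as GAA, any 2 bases, TTC, any 2 bases and GAA on both strands, was present in 22.7% of heat shock promoters (5 of 22), 0.797% for genes that fell, 0.0992% for genes that rose and 0.465% for all tested genes.

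In cholesterol metabolism, synthesis genes fell and 1 export gene rose. Of 27 genes 10 fell, beside 5.85% of all tested genes, and 1 rose (median -0.40). Soat2, which encodes an enzyme that stores cholesterol as esters, was at 36.2, 21.8 and 20.3 FPKM in control and 6.02, 7.15 and 8.61 FPKM in irradiated tumours (log2 -1.87 ± 0.28, adjusted p = 0.0017), with control replicate 1 well above the other controls. Srebf2, the master regulator of cholesterol synthesis, was at 45.7, 43.9 and 49.6 FPKM in control and 34.1, 36.7 and 36.1 FPKM in irradiated tumours (log2 -0.41 ± 0.07, adjusted p = 0.004). The groups were separate in both genes. Hmgcs1, an early enzyme of the pathway, was at 31.4, 34.2 and 35.7 FPKM in control and 17.4, 30.4 and 18.2 FPKM in irradiated tumours (log2 -0.64 ± 0.19, adjusted p = 0.04), with radiation replicate 2 near control, and did not pass without control replicates 1, 2 or 3 or radiation replicates 1 or 3, or with either limma fit, with the robust fit, with the 6 libraries alone or with library totals (adjusted p 0.053 to 0.16). The riser was Abcg1, a cholesterol exporter of macrophages, at 2.18, 2.48 and 2.57 FPKM in control and 4.65, 3.64 and 4.89 FPKM in irradiated tumours, and it did not pass without control replicates 1, 2 or 3 or radiation replicates 1 or 3, or with limma on log2(FPKM + 1), with the robust fit or without both replicates 2 (adjusted p 0.052 to 0.11). The list had 17 falls without radiation replicate 2, 6 without control replicate 1 or 3, 4 without control replicate 2 or radiation replicate 3 and 3 without radiation replicate 1. Falls among cholesterol genes numbered 6 with either limma fit and 16 without the filter.

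Cytosolic ribosomal protein genes were lower in 81 of 84 cases on average (median -0.32) and fell in 20, beside 5.85% of all tested genes. This count of falls depended on single libraries and on the setting. The summed level was 38400, 36600 and 32800 FPKM in control and 26900, 29700 and 33000 FPKM in irradiated tumours, so that radiation replicate 3 lay among the controls. Without radiation replicate 3 there were 34 falls and without control replicate 3 there were 33, while there were 12 without radiation replicate 2, 2 without control replicate 2, 1 without control replicate 1 and 0 without radiation replicate 1. Ribosomal genes that fell numbered 0 without both replicates 2, 3 with limma on log2(FPKM + 0.1), 4 with limma on log2(FPKM + 1), 9 with the 6 libraries alone, 35 with DESeq2 and 59 without the filter. Many of these genes have near-identical pseudogenes. Rps15, for example, shares 49.7% of its sequence and was at 1549, 1516 and 1247 FPKM in control and 1017, 1141 and 1168 FPKM in irradiated tumours (log2 -0.40 ± 0.09, adjusted p = 0.01), and it did not pass without radiation replicate 1, or without both replicates 2 (adjusted p 0.051 to 0.058).

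Hypoxia, iron and immediate early genes showed few calls, beside 7.39% of all tested genes that rose and 5.85% that fell. Of 27 hypoxia and glycolysis genes 2 fell, Vegfa and Ndrg1, and 1 rose, Pfkfb3. Vegfa, the vascular growth factor gene, was at 80.2, 82.7 and 60.4 FPKM in control and 46.9, 42.6 and 55.3 FPKM in irradiated tumours (log2 -0.65 ± 0.14, adjusted p = 0.0093), with no overlap, and did not pass without both replicates 2 (adjusted p = 0.094). Ndrg1, a stress-responsive gene, was at 160.1, 181 and 168 FPKM in control and 123, 92.8 and 140.4 FPKM in irradiated tumours (log2 -0.54 ± 0.13, adjusted p = 0.015), and did not pass without control replicate 2, or without both replicates 2 (adjusted p 0.056 to 0.076). Pfkfb3, an activator of glycolysis, was at 3.4, 2.35 and 3.5 FPKM in control and 6.7, 3.73 and 5.85 FPKM in irradiated tumours and did not pass without control replicates 1 or 2 or radiation replicates 1 or 3, or with either limma fit or with the robust fit (adjusted p 0.057 to 0.13). Falls in the list numbered 5 without control replicate 1 or radiation replicate 3 and 1 without control replicate 2, and otherwise 0 without both replicates 2, 4 with a filter on counts or with the length trend removed, 5 with DESeq2 and 10 without the filter. Ldha, the lactate dehydrogenase gene, was at 531, 637 and 634 FPKM in control and 526, 504 and 538 FPKM in irradiated tumours and did not pass. In the list of NRF2 targets and iron genes 1 of 19 rose, Aifm2, and 1 fell, Acsl4, both linked to ferroptosis. Aifm2 changed by 0.34 ± 0.09 and Acsl4 by -0.22 ± 0.06, and Aifm2 did not pass without control replicates 1 or 2 or radiation replicates 1 or 3, or with the 6 libraries alone or without both replicates 2 (adjusted p 0.067 to 0.13) nor Acsl4 without control replicates 1 or 2 or radiation replicates 1, 2 or 3, or with either limma fit, with the 6 libraries alone, with library totals, without the filter or without both replicates 2 (adjusted p 0.057 to 0.19). Without the filter 3 genes of this list rose. Hmox1, the heme oxygenase gene, was at 43.1, 39.3 and 34.3 FPKM in control and 43.99, 42.5 and 92.4 FPKM in irradiated tumours, highest in radiation replicate 3. Among 21 immediate early genes 2 fell, Ier2 and Jund. Ier2 was at 48.7, 37.1 and 31.3 FPKM in control and 25.9, 32.1 and 25.2 FPKM in irradiated tumours, with overlap, and did not pass without control replicates 1 or 2 or radiation replicates 1 or 3, or with either limma fit, with the robust fit, with the 6 libraries alone, with library totals or without both replicates 2 (adjusted p 0.054 to 0.18). Jund changed by -0.30 ± 0.09, shares 50.1% of its sequence and did not pass without control replicates 1, 2 or 3 or radiation replicates 1, 2 or 3, or with either limma fit, with library totals or without both replicates 2 (adjusted p 0.053 to 0.31). The other immediate early genes did not pass, but 2 rose and 6 fell without the filter.

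Outside the lists, the genes with large and separate rises included further genes known from macrophages and interferon responses. Siglec1, which encodes the sialic acid receptor CD169 of interferon-exposed macrophages (ENSMUSG00000027322, chromosome 2, 130911140 to 130928685, mm39), was at 10.9, 9.04 and 9.15 FPKM in control and 24.5, 28.3 and 27.97 FPKM in irradiated tumours (log2 1.44 ± 0.10, adjusted p = 7.4e-06). Slfn5, an interferon-induced gene of the Schlafen family, was at 3.3, 3.89 and 3.45 FPKM in control and 9.1, 11.4 and 9.01 FPKM in irradiated tumours (log2 1.44 ± 0.17, adjusted p = 0.00054), and Slfn4 of the same family at 5.34, 6.55 and 3.82 FPKM in control and 13.02, 34.5 and 20.3 FPKM in irradiated tumours (log2 2.08 ± 0.40, adjusted p = 0.0055). Ms4a4c, a membrane protein gene, was at 5.86, 7.74 and 8.13 FPKM in control and 19.5, 22.9 and 24.8 FPKM in irradiated tumours (log2 1.60 ± 0.21, adjusted p = 0.0011). Siglec1 and Slfn5 varied little within groups, and Slfn4 was highest in radiation replicate 2. Smpdl3a, a phosphodiesterase gene, rose by 1.61 ± 0.23, P2ry13, a receptor gene for ADP, by 1.33 ± 0.21 and Slfn1 by 1.47 ± 0.26. Apod, the apolipoprotein D gene, was at 6.29, 11.7 and 10.2 FPKM in control and 35.6, 27.1 and 32.9 FPKM in irradiated tumours (log2 1.73 ± 0.28, adjusted p = 0.0027). Thbs4, a matrix protein gene, was at 2.92, 2.59 and 1.7 FPKM in control and 4.61, 15.6 and 3.93 FPKM in irradiated tumours, high in radiation replicate 2, and did not pass without control replicates 1, 2 or 3 or radiation replicate 2, or with either limma fit, with the robust fit, with the 6 libraries alone or without both replicates 2 (adjusted p 0.057 to 0.13).

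Several genes outside the lists that fell were highest in control replicate 1. Angptl6, a secreted angiopoietin-like protein gene, was at 18.97, 8.24 and 6.96 FPKM in control and 2.08, 3.6 and 3.63 FPKM in irradiated tumours (log2 -1.90 ± 0.36, adjusted p = 0.005). Acot2, a mitochondrial acyl-CoA thioesterase gene, was at 11.3, 7.39 and 6.97 FPKM in control and 3.66, 3.22 and 4.18 FPKM in irradiated tumours (log2 -1.24 ± 0.18, adjusted p = 0.0017). Cyb5r1, a reductase gene, was at 38.1, 26.03 and 23.9 FPKM in control and 14.8, 16.1 and 16.9 FPKM in irradiated tumours (log2 -0.91 ± 0.16, adjusted p = 0.0038), and Glce, an enzyme gene of heparan sulfate synthesis, at 14.1, 11.1 and 8.94 FPKM in control and 6.02, 7.5 and 6.3 FPKM in irradiated tumours (log2 -0.81 ± 0.15, adjusted p = 0.0055). The groups did not overlap in these genes, and each passed without control replicate 1 too. Car6, a secreted carbonic anhydrase gene, was at 24.9, 7.61 and 3.61 FPKM in control and 2.73, 3.28 and 2.48 FPKM in irradiated tumours (log2 -2.12 ± 0.62, adjusted p = 0.041), and did not pass without control replicates 1 or 2 or radiation replicates 1, 2 or 3, or with either limma fit, with the robust fit, with the 6 libraries alone or without both replicates 2 (adjusted p 0.053 to 0.25). Sele, the E-selectin gene of activated endothelium, was at 41.2, 21.6 and 24.7 FPKM in control and 15.9, 18.6 and 18.6 FPKM in irradiated tumours (log2 -0.75 ± 0.21, adjusted p = 0.033), and did not pass without control replicate 1 or radiation replicates 1, 2 or 3, or with either limma fit, with the robust fit or with the 6 libraries alone (adjusted p 0.056 to 0.13).

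Some genes that rose lie side by side. Among tested genes in order of position there were 10 runs of at least 4 neighbours that all rose, and 0 runs of genes that all fell. The longest, on chromosome 19 from 34268066 to 34627409 (mm39), holds 9 genes over 359 kb: Fas, Ch25h, Lipa and the Ifit family (Ifit2, Ifit3, Ifit1bl1, Ifit3b, Ifit1bl2 and Ifit1), with a median change of 1.62. Ch25h, which encodes an enzyme that makes an antiviral oxysterol, was at 20.7, 18.8 and 28.99 FPKM in control and 51.7, 61.5 and 61.5 FPKM in irradiated tumours (log2 1.33 ± 0.20, adjusted p = 0.0018). Lipa, the lysosomal acid lipase gene, was at 3.43, 4.01 and 4.11 FPKM in control and 6.38, 5.47 and 6.32 FPKM in irradiated tumours (log2 0.63 ± 0.12, adjusted p = 0.0062). These 2 genes lie between Fas and the Ifit genes and belong to neither family. Ifit3 and Ifit3b share 61.8% and 55.3% of their sequence with other loci, so that their counts are uncertain. Ifit1bl1 did not pass without control replicates 1 or 2, radiation replicate 2 or both replicates 2, or with the robust fit (adjusted p 0.055 to 0.12). Ifit2 did not pass without both replicates 2 (adjusted p = 0.053).

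On chromosome 1 a run of 7 genes and pseudogenes of the Ifi200 family of DNA-binding proteins (173458483 to 173740612) had a median of 0.62 and includes Ifi209 at 1.12, 1.48 and 1.5 FPKM in control and 2.96, 4.45 and 3.78 FPKM in irradiated tumours (log2 1.42 ± 0.22, adjusted p = 0.0022). On chromosome 7 a run of 7 genes (103893664 to 104157056) holds Trim30 and Trim34 genes of the tripartite motif family, with a median of 0.95, and Trim30a was at 20.03, 25.01 and 25.2 FPKM in control and 46.3, 42.9 and 46.04 FPKM in irradiated tumours (log2 0.92 ± 0.17, adjusted p = 0.0045). On chromosome 11 the chemokine genes Ccl2, Ccl7, Ccl11, Ccl12 and Ccl8 (81926397 to 82007625) had a median of 1.26. Ccl12 did not pass without control replicates 1, 2 or 3, radiation replicates 2 or 3 or both replicates 2 (adjusted p 0.059 to 0.18). It also did not pass with either limma fit, with the robust fit or with the 6 libraries alone (adjusted p 0.082 to 0.092). Ccl11, the eotaxin gene, was at 0.81, 0.63 and 0.68 FPKM in control and 1.49, 5.85 and 2.88 FPKM in irradiated tumours (log2 2.24 ± 0.50, adjusted p = 0.012), highest in radiation replicate 2, and did not pass without both replicates 2 (adjusted p = 0.11). Members of a run can share sequence and, since the strand setting of the counting is not given in the sources used here, reads of overlapping or antisense genes cannot be told apart. The number of runs was 3 to 10 when 1 library was left out (3 without control replicate 1, and 5 without control replicate 2 or 3 or radiation replicate 1 or 3), and 1 without both replicates 2.

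**Figure D5:**
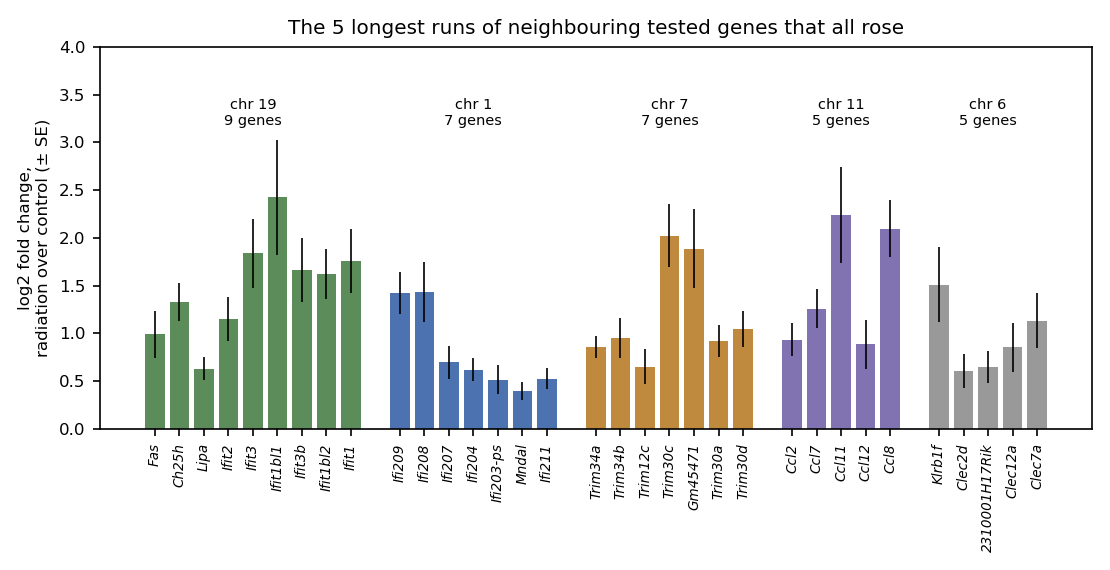
Log2 fold change of irradiated over control tumours with its SE (vertical axis) for the genes of the 5 longest runs of neighbouring tested genes that all rose, in order along each chromosome. The run of 9 genes on chromosome 19 spans Fas to Ifit1, and the changes over the 5 runs range from 0.40 (Mndal) to 2.42 (Ifit1bl1). Mndal did not pass without control replicate 2 or without both replicates 2 (adjusted p 0.057 to 0.076). In the chromosome 6 run, Klrb1f, Clec2d, 2310001H17Rik, Clec12a and Clec7a all failed without control replicate 1 or 2 or both replicates 2 (adjusted p 0.051 to 0.17). They also failed under further settings. Ifi207, Ifi203-ps, Ifi211, Trim12c, Trim34b and Gm45471 each failed under some setting (adjusted p 0.05 to 0.19). Limits for Fas, Ifit and Ccl genes are given in the text.

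The same radiation contrast was available in tumours of mice given complex 1, as the combination against complex 1 alone, which shares no library with the comparison above. Of the 1010 genes that rose with radiation alone, 995 (98.5%) were higher there too and 437 (43.3%) rose, with medians of 0.65 without and 0.43 with the compound. Of the 800 that fell, 774 (96.8%) were lower there too and 411 (51.4%) fell, with medians of -0.35 and -0.29. Over all tested genes 74.8% had the same sign. In that comparison 647 genes rose (4.73%) and 717 fell (5.25%). The genes were selected by their change without the compound, so the medians are a description. Ccng1 changed by 1.29 ± 0.08 without and 1.20 with the compound, and Trp53inp1 by 1.64 ± 0.10 and 1.52. Mx1 changed by 2.05 ± 0.32 and 1.47, Adgre1 by 1.35 ± 0.14 and 1.12, Trib3 by -1.42 ± 0.18 and -1.26, and Kif23 by -0.46 ± 0.07 and -0.64. The difference between the 2 radiation changes was tested directly as an interaction in edgeR, and 0 genes passed, with 601 at an unadjusted p under 0.05 (4.4%). DESeq2 called 6 genes, and edgeR without the filter on low values called 163 of 31727.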

How the data were processed

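RNA of 12 CT26 tumour samples was sequenced after library preparation with an NEBNext Ultra kit, per the labels' protocols. The submitters' processing notes name STAR 2.5.3a, HTSeq 2.0.1, DESeq2 and mm39, and the strand setting is not given in the sources used here. The authors deposited gene counts and FPKM for 55415 entries. Counts of whole reads per gene were used for tests and the deposited FPKM, rounded by the authors to 2 decimals, for levels.

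The 13668 genes tested had 1 FPKM or more in 3 or more of the 12 libraries. Counts of all 12 libraries, which share 1 estimate of the spread, were scaled with TMM and fitted with 1 mean per group in edgeR 4.0.16 (R 4.3.3) by its quasi-likelihood test, with Benjamini-Hochberg adjustment over all tested genes and a threshold of 0.05. The interaction was the combination minus complex 1, minus radiation minus control. The SE was taken from the fold change and the F statistic. The procedure was tested on simulated data. The 1492 entries that have an identifier and no symbol held 0.0579% to 0.0662% of the counts in the 6 libraries and were treated like other genes.

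The members and the 38 gene lists were chosen with earlier results of these data known. Genes were named by rule: up to 4 with the smallest p per list and direction, up to 12 outside the lists per direction with the largest change, separate groups and at least 5 FPKM, and members of up to 8 runs. Further list members were named for their role after their values were seen. Lists are described by counts and medians with no test. Shared sequence is the share of 31-base words of a gene's transcripts that another gene holds. RefSeq promoters (GRCm38.p6) matched 9325 of 13541 symbols of tested genes. Alternatives used limma 3.58.1 on log2(FPKM + 1) and log2(FPKM + 0.1), DESeq2 1.42.0, other scalings and filters, the 6 libraries alone, a replicate block, a robust fit, removal of a gene length trend, and leaving out each library. Leaving out both replicates 2 was chosen after seeing the data.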

Additional observations from a re-analysis of the deposited data

How the results depend on the processing

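Among named genes past the threshold, 130 of 233 passed under every alternative, 103 failed at least 1, and 0 turned direction. Of 37 named genes that did not pass, 18 passed under at least 1 alternative and 5 turned direction when 1 library or both replicates 2 were left out: Ccl17 (-0.527 to 2.469; -0.441 without both replicates 2), S100a9 (-0.157 to 1.084), Ifitm1 (-0.009 to 0.229), Atf3 (-0.165 to 0.348) and Ddb2 (-0.015 to 0.131). Genes that fell numbered 464 and 472 with limma on log2(FPKM + 1) and log2(FPKM + 0.1), 1221 without the filter, 459 with the 6 libraries alone and 393 without both replicates 2, where 584 rose. Without the filter 31727 genes were tested, and with 6 libraries fewer samples set the spread. The causes of other shifts were not tested.

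The replicate block gave 1063 rises, 831 falls, 11 runs and 0 interactions, and it moved none of these 4 counts by over 1.5 times. In the lists it moved rises from 7 to 11 (GTPases), 2 to 4 (T cells), 1 to 2 (neutrophils), 0 to 2 (mast cells) and 0 to 1 (ATF4 targets and immediate early genes), and falls from 2 to 4 (hypoxia). Same-numbered libraries deviated with r of -0.081, 0.0938 and -0.051, and not every library correlated best with its own number. With 3 libraries a group, these values cannot tell whether the numbers pair the samples, and the main fit used no pairing.

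Interactions numbered 6 with DESeq2 and 163 without the filter, and 0 without any 1 library. Runs numbered 6 with either limma fit and with the robust fit, 18 without the filter and 1 without both replicates 2. The ISRE share of risers was 11.4% with the 6 libraries alone, and the CHR share of fallers 25.5% without both replicates 2. With limma on log2(FPKM + 1), list medians were -0.199 for G1 and E2F genes, 0.687 for sensors, 0.573 for chemokines, 0.577 for dendritic cells, -1.087 for keratinocytes, -0.051 for NRF2 and -0.156 for break repair. NRF2 was at -0.053 with library totals and with limma on log2(FPKM + 0.1). Without both replicates 2, medians were 0.642 (dendritic cells), -0.031 (fibroblasts), -1.881 (keratinocytes), 0.935 (erythroid) and -0.036 (NRF2).

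Leaving out 1 library gave 542 to 989 rises, 299 to 777 falls, 3 to 10 runs and a CHR share of 15.2% to 24.5% among fallers. List medians ranged from 0.23 to 0.476 for p53 arrest, 0.288 to 0.452 for p53 repair, -0.28 to -0.205 for G1, 0.732 to 0.838 for sensors, 0.268 to 0.36 for lysosome, 0.828 to 1.01 for complement, 0.702 to 0.795 for dendritic cells, 0.298 to 0.887 for neutrophils, -0.113 to 0.366 for endothelium, -0.039 to 0.232 for fibroblasts, -0.221 to 1.117 for muscle (1.224 without both replicates 2), -1.812 to -1.389 for keratinocytes, 0.094 to 0.893 for erythroid genes, -0.089 to -0.048 for NRF2 and -0.275 to -0.177 for break repair. Genes below about 0.08 FPKM at 2 kb rest on fewer than 3 counts, and changes there were not detectable.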
